A study of Mus musculus with 20 samples.

Results

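The comparison asked whether a flaxseed diet altered RNA levels in mouse lung that had been irradiated. Lungs from 5 mice that ate a diet with 10% flaxseed for 21 days and received 13.5 Gy to the chest were set against lungs from 5 mice that received the same dose without flaxseed. Groups follow the treatment named in the labels, and these 10 arrays are part of the 20 in the series. All mice were C57BL/6, an inbred laboratory strain, and the tissue was taken 48 hours after the dose. Each array held labelled RNA from the lung of 1 mouse and reported 9600 spots. Both groups carried the radiation and differed by label in the diet. The remaining arrays came from mice that were not irradiated, 5 with the flaxseed diet and 5 untreated, and served for the estimate of spread and for reading the diet without radiation. The sources used here do not give age, sex or the make-up of the ordinary diet.

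Flaxseed is rich in alpha-linolenic acid, an omega-3 fatty acid, and in lignans, plant compounds that gut bacteria convert to forms the body absorbs. It has been studied in mice for effects on oxidative damage and inflammation of the lung. Ionising radiation breaks DNA and produces reactive oxygen species, cells answer within hours through p53 and the DNA repair pathways, and overt inflammation and scarring of the lung follow much later. In whole lung tissue, fewer cells of a type and less RNA per cell cannot be told apart.

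The files name spots by number and pair none of them with a gene (0 spot names were found in the mouse gene table held here), so no gene, pathway or lung cell type could be read and the labelled tissue could not be checked by markers. Spots are given by their number, as log2 intensity after background correction and normalization. The offset of 50 scanner units added in that correction compresses differences of dim spots.

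Arrays of both groups were of like brightness. Median signal per array ran from 75.3 to 125.8 scanner units with radiation alone and from 95.7 to 114.0 with flaxseed and radiation. Median signal over local background was 5.4 ± 0.723 (SD, n = 5) and 5.84 ± 0.56, and 13.6% to 18.5% and 13.2% to 17.5% of spots lay under 2 times their background. None of 5 array measures (these, the background itself and the variance by row of the spot number) passed an exact two-sided permutation test (n = 5 a group), where the smallest adjusted p was 0.625 and the smallest raw p the design allows is 0.00794. The number of arrays sets the precision here.

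No spot passed the test between the diets in irradiated lung. In limma, with Benjamini-Hochberg adjustment over all spots and a threshold of 0.05, 0 of 9600 spots (0%) were called, and the smallest adjusted p was 0.508. At an unadjusted p under 0.05 there were 518 spots, or 5.4%, of which 250 were higher and 268 lower with flaxseed. The same reading of the diet without radiation gave 1277 spots, or 13.3%. The diet differences in irradiated lung had a root mean square of 0.17 (log2), close to the root mean square of their standard errors, 0.162. Without radiation, the diet differences had a root mean square of 0.25 against the same 0.162. The central 95% of spots lay between -0.36 and 0.36 (log2) in irradiated lung, and the median difference was 0.00047. Of all spots, 50.1% had a higher mean with flaxseed. Quantile normalization gives every array the same distribution, which largely fixes this share and the median difference. Neither value is therefore a test of the diet. With median scaling in its place the median difference was -0.036, and 670 spots had an unadjusted limma p under 0.05.

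The spots nearest to a call differed by 0.39 to 0.52 (log2), under 1.5-fold, on the scale with the offset. With background subtraction gene8744, gene6547, gene4462 and gene6111 differed by 0.83, 0.69, -0.82 and -0.90, and with an offset of 0 by 0.77, 0.63, -0.76 and -0.83, all over 1.5-fold. They were picked by their p in this comparison, so their values are a description. Spot gene8744 read 7.13, 6.84, 6.85, 6.93 and 6.98 (log2) in the 5 lungs with radiation alone and 7.48, 7.37, 7.52, 7.24 and 7.65 with flaxseed and radiation. Every flaxseed lung stood above every lung without it. The difference was 0.50 ± 0.12 (log2, SE), with a 95% interval from 0.26 to 0.75 and a limma adjusted p of 0.508. Spot gene6547 read 7.08, 6.99, 6.61, 7.13 and 6.78 with radiation alone and 7.26, 7.42, 7.36, 7.33 and 7.18 with both. Its groups did not overlap either, with the lowest flaxseed lung close above the highest without, and the difference was 0.39 ± 0.1 (SE; limma adjusted p = 0.508).

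On the lower side stood gene4462 and gene6111. Spot gene4462 read 7.34, 7.37, 7.64, 7.69 and 7.69 (log2) with radiation alone and 7.23, 6.75, 6.92, 7.27 and 7.04 with both, a difference of -0.51 ± 0.1 (SE; limma adjusted p = 0.508). Without radiation it stood at 7.24 ± 0.13 (SD, n = 5) in untreated lungs and 6.93 ± 0.09 with flaxseed, a difference of -0.32 that did not pass (limma adjusted p = 0.168). The mean with flaxseed was below the mean without it in both settings and passed in neither. Spot gene6111 read 7.42, 7.47, 7.12, 7.21 and 7.59 with radiation alone and 6.52, 6.92, 7.06, 6.81 and 6.93 with both, a difference of -0.52 ± 0.11 (SE; limma adjusted p = 0.508). The groups were apart for both of these spots. Across the array, groups failed to overlap at 66 spots (0.688%), 25 higher (0.26%) and 41 lower (0.427%) with flaxseed. All 4 spots kept their sign in each of 20 fits that left out 1 array and in 13 other settings, with limma adjusted p from 0.176 to 0.923. Among the 13, the threshold of 0.1 repeats the main values.

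**Figure D1:**
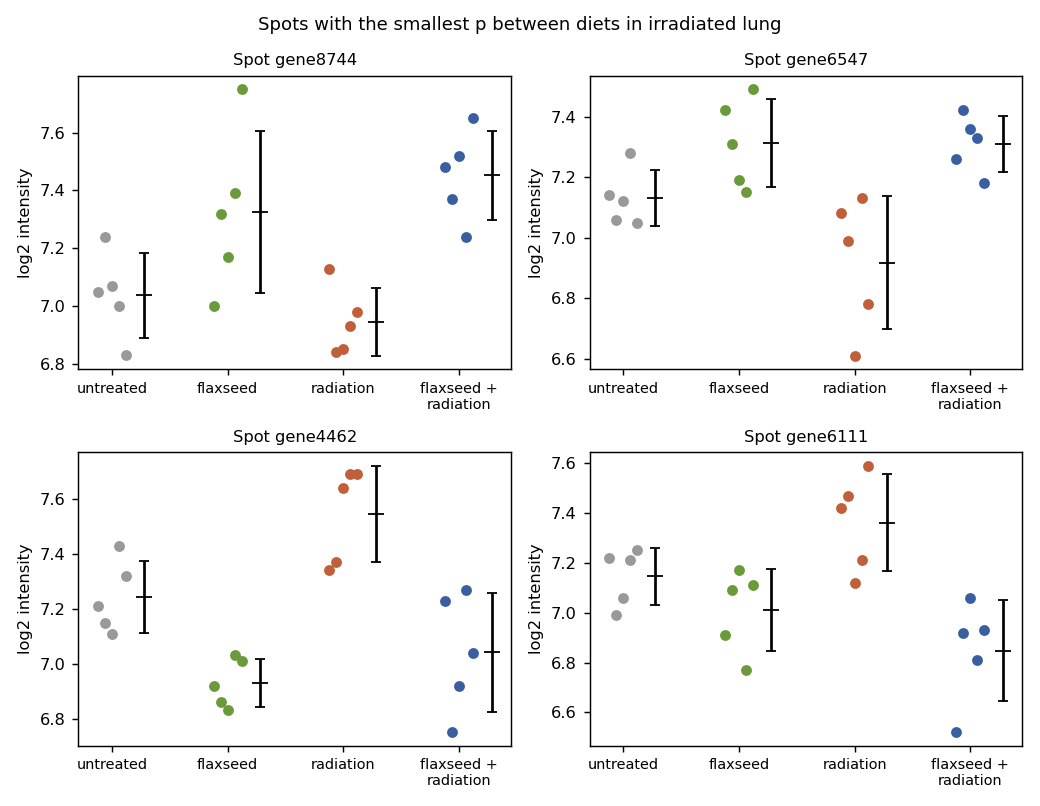
Log2 intensity of the 4 spots with the smallest p between diets in irradiated lung. Each point is 1 mouse, and the bar beside each group gives the mean and SD (n = 5). The radiation group and the flaxseed and radiation group do not overlap in any panel, yet no spot passed after adjustment (smallest adjusted p 0.508).

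The spots with the largest differences, singled out after their values were seen, were uneven among mice. On the scale with the offset and over all arrays, gene1290 alone had means more than 2-fold apart. It read 9.97, 10.5, 9.46, 10.14 and 10.1 (log2) with radiation alone and 8.94, 9.16, 9.17, 7.88 and 9.65 with both. The groups overlapped, and the difference was -1.07 ± 0.29 (SE), with an interval from -1.68 to -0.47 (limma adjusted p = 0.522). Without flaxseed and radiation replicate 4 the difference was -0.80, under 2-fold. The largest difference upward on that scale, at gene6376, rested on 1 lung. That spot read 11.75 in flaxseed and radiation replicate 2 and 6.45 to 6.72 in the other 4 lungs of its group, against 6.27 to 6.89 with radiation alone. The scanner signal there was 4404 over a local background of 300.1, where the background of the other 9 irradiated lungs was 8.05 to 23.1. With that array left out the difference was -0.04 in place of 0.99. With all arrays it was also over 2-fold with an offset of 0, at 1.20, and with subtraction, at 1.25.

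The intervals show which changes the data exclude. On the scale analysed, the 95% interval of the diet difference lay inside a 2-fold change in both directions at 9426 of 9600 spots (98.2%), and inside a 4-fold change at 9598. An equivalence test against a 2-fold change, adjusted over all spots by Benjamini-Hochberg, passed at 9502. The median interval reached 0.30 (log2) to either side, that is, less than 1.5-fold. These counts lean on the offset. With its compression undone, so that the limits refer to signal above background, a 2-fold change was excluded at 8572 spots (89.3%), and at 1530 of the 1920 dimmest (79.7%). With an offset of 0 in the background correction it was excluded at 8903 spots (92.7%). With plain background subtraction it was 7186 spots (74.9%), 642 of them among the 1920 dimmest. The authors' deposited table gave 71.8%, or 6891 spots, with 475 among the dimmest. A 2-fold change was therefore outside the interval at most spots in each of these settings, and the dimmest 1920 spots had a lower share than the brightest 1920 with the compression undone, with subtraction and with the deposited table of the authors.

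A 1.5-fold change could be excluded at far fewer spots once the offset was set aside. The interval lay inside 1.5-fold at 7605 spots (79.2%) on the scale analysed, but at 29.3% with the compression undone, at 2882 spots with an offset of 0 and at 1321 with background subtraction. On a scale without the offset, then, a 1.5-fold change of a spot with the diet stayed within the interval at most spots.

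**Figure D2:**
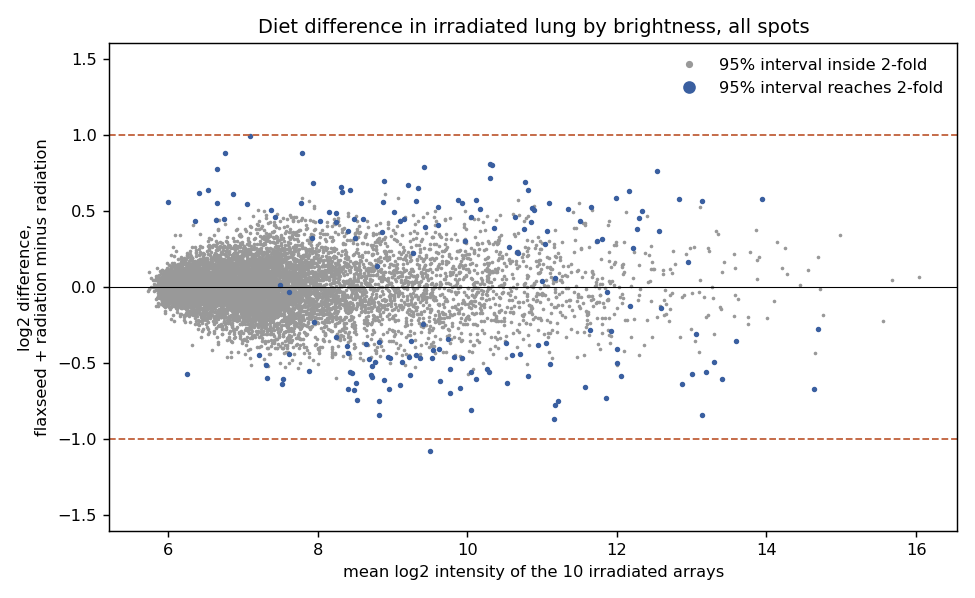
Log2 difference between flaxseed with radiation and radiation alone (vertical axis) against the mean log2 intensity of the 10 irradiated arrays (horizontal axis), 1 point per spot. Blue points are the 174 spots whose 95% interval reaches a 2-fold change, and dashed lines mark 2-fold. The narrow cloud at low intensity includes the compression by the offset.

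On the scale with the offset, the 174 spots at which a 2-fold change stayed within the interval were mostly bright and variable ones. The brightest 1920 spots held 135 of them, the dimmest 1920 held 3. Their median SD among mice was 0.41 (log2) with radiation alone and 0.58 with both, where over all spots it was 0.20 and 0.21. For 88 of them the upper limit reached a 2-fold rise and for 89 the lower limit a 2-fold fall, with 3 in both counts. The lean to bright spots depended on the scale. With the compression undone, a 2-fold change was excluded at 1530 of the dimmest 1920 and 1731 of the brightest 1920. These counts were 642 and 1689 with subtraction, and 475 and 1639 with the authors' table. They were equal, at 1760, with an offset of 0, and 1902 and 1777 with no background correction.

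**Figure D3:**
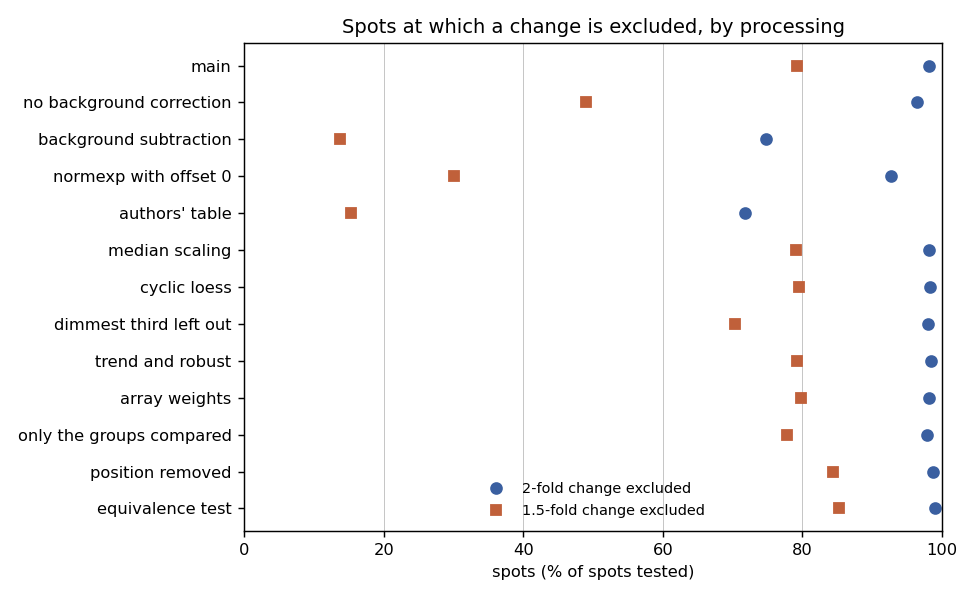
Percentage of spots tested at which the 95% interval of the diet difference excluded a 2-fold change (circles) or a 1.5-fold change (squares) in irradiated lung, by processing (rows). A 2-fold change was excluded at 71.8% of spots or more in every row, while the share for 1.5-fold fell steeply in rows without the offset.

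The diet without radiation gave a list of spots to read in irradiated lung. The arrays of these comparisons are not shared, but the fit of all 4 groups gives both the same estimate of spread per spot. Choosing spots by p favours a small estimate, which also lowers their p in irradiated lung. Flaxseed alone against no treatment called 42 spots in limma (0.438% of spots), 19 higher (0.198%) and 23 lower (0.24%). In irradiated lung the means with flaxseed lay above those without it at 10 of the 19 and at 12 of the 23, and none of the 42 was called (0% of all spots were). Taken in the direction of the change without radiation, their median difference was 7.6e-05 (log2), against a median change of 0.81 without radiation, and over all spots taken the same way it was -0.003. At an unadjusted p under 0.05 there were 8 of the 42 (19.0%), beside 5.4% of all spots. Of these, 4 ran in the direction of the change without radiation and 4 in the opposite direction. The irradiated groups did not overlap at 3 of the 42 (7.14%), beside 0.688% of all spots. The shared estimate of spread includes the irradiated arrays, so the choice of the list can raise this count too. Averaged over the 42 spots and taken in the same direction, the level relative to the mean of the radiation group ran from -0.09 to 0.08 in the 5 lungs with radiation alone and from -0.05 to 0.04 with both. In lungs without radiation it ran from -0.13 to 0.14 untreated and from 0.72 to 0.94 with flaxseed, the groups that chose the list.

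The largest changes with flaxseed alone were at gene4884 and gene5478 upward and gene1092 and gene5063 downward. Spot gene4884 changed by 1.08 ± 0.2 (log2, SE) without radiation (limma adjusted p = 0.0241). In irradiated lung it read 9.74, 10.23, 10.26, 9.98 and 10.2 without flaxseed and 9.65, 10.08, 10.1, 10.35 and 9.73 with it. The groups overlapped almost fully, and the interval of the difference, from -0.51 to 0.31, lay below the change without radiation. Spot gene5478 changed by 1.03 ± 0.21 (SE) without radiation (limma adjusted p = 0.0407). It read 9.06, 9.22, 9.56, 9.26 and 9.45 in irradiated lungs without flaxseed and 9.16, 9.08, 9.15, 9.64 and 9.68 with it, a difference of 0.03 with an interval from -0.41 to 0.47. Here too the irradiated groups were interleaved.

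Spot gene1092 changed by -1.34 ± 0.23 (SE) without radiation (limma adjusted p = 0.0241). In irradiated lung it read 13.66, 13.21, 14.4, 14.09 and 13.98 without flaxseed and 13.58, 13.64, 13.48, 13.88 and 13.55 with it. The flaxseed lungs sat within the range of the others, and the interval ran from -0.71 to 0.23. Spot gene5063 differed from these. It changed by -1.28 ± 0.23 (SE) without radiation, and in irradiated lung it read 8.75, 9.09, 9.12, 8.51 and 9.63 without flaxseed and 9.06, 8.47, 8.05, 8.29 and 8.28 with it. Of the flaxseed lungs 4 lay below all lungs without it and the remaining 1 did not. The difference of -0.59 ± 0.23 (SE) did not pass (limma adjusted p = 0.846), and its interval, from -1.06 to -0.12, left out both 0 and the size seen without radiation.

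**Figure D4:**
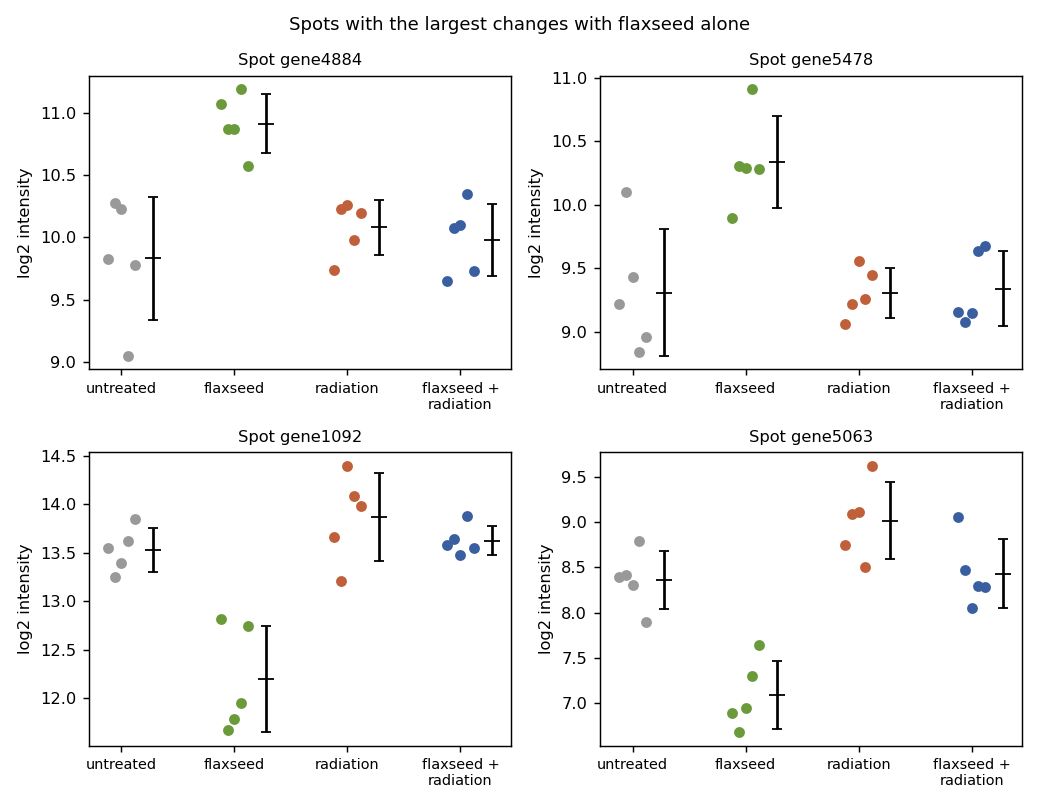
Log2 intensity of the 4 spots with the largest changes with flaxseed alone, upward in the top row and downward in the bottom row. Each point is 1 mouse, and the bar beside each group gives the mean and SD (n = 5). The flaxseed group stands apart from the untreated group except at gene5478, where 1 untreated lung at 10.1 lies above the lowest flaxseed lung at 9.9, while the irradiated groups overlap in every panel.

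The size of these changes was set against the irradiated intervals spot by spot. At all 42 spots the 95% interval in irradiated lung excluded the change estimated without radiation, and at 29 it excluded 50% of that change. The count was 39 to 42 in 12 other settings and 40 to 42 when single arrays were left out. The list stayed that of the main fit throughout, so among the 12 the threshold of 0.1 repeats the main counts by construction. For 50% of the change the count was 22 to 29 in the other settings and 23 to 30 with single arrays left out. The spots were chosen for large changes without radiation, so those estimates tend to be too large and the counts with them, and the error of the estimates themselves does not enter. The choice also favours spots with a small estimate of the shared spread, which narrows their irradiated intervals and raises the counts further.

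**Figure D5:**
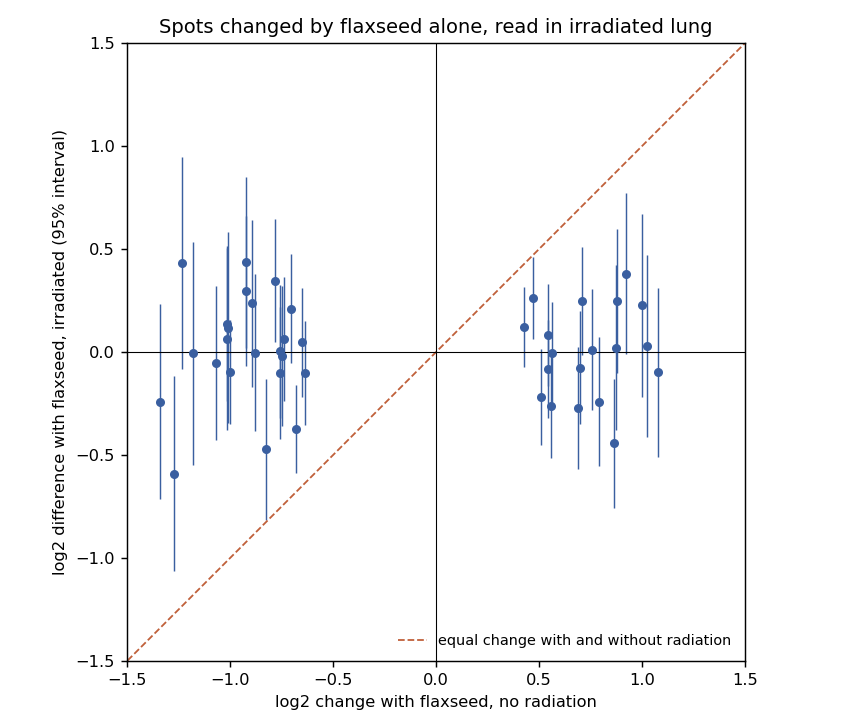
Log2 difference with flaxseed in irradiated lung (vertical axis, with 95% interval) against the log2 change with flaxseed without radiation (horizontal axis) for the 42 spots that the latter called. The dashed line marks equal change. The points scatter around 0 on the vertical axis, and no interval reaches the dashed line.

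The test of the difference itself, the interaction of diet and radiation, called 0 of 9600 spots in limma (0%), with 971 (10.1%) at an unadjusted p under 0.05 and a smallest adjusted p of 0.0616. Of the 42 spots, 39 had an unadjusted interaction p under 0.05, a count that the choice of the list largely fixes, since the interaction holds the same flaxseed and untreated arrays. The spot nearest to a call was gene4007, singled out after its values were seen. It changed by 0.86 ± 0.15 (log2, SE) with flaxseed alone (limma adjusted p = 0.0241). In irradiated lung it read 9.63, 9.73, 10.01, 9.34 and 9.25 without flaxseed and 9.02, 9.24, 9.05, 9.24 and 9.2 with it, lower in every flaxseed lung, with a difference of -0.44 ± 0.15 (SE; limma adjusted p = 0.813). The interaction there was -1.31 ± 0.21 (SE). Without radiation replicate 5, numbered as in the scanner files (the deposited table exchanges it with replicate 4), the interaction called 13 spots, 5 higher and 8 lower by sign of the interaction. Across all spots, the diet differences with and without radiation had r = -0.047, over 9600 spots that share arrays and are not independent.

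Spots that responded to radiation were read between the diets to compare the levels they reached with and without flaxseed. Radiation averaged over both diets called 493 spots in limma (5.14%), 311 higher and 182 lower. Before adjustment, 1896 spots (19.8%) had a p under 0.05. That contrast uses the same irradiated arrays but does not depend on their difference. Of the 493, none was called between the diets, and 41 had an unadjusted p under 0.05, or 8.32% beside 5.4% of all spots. Among those 41, the difference ran in the direction of the radiation change at 28 and in the opposite direction at 13. Of the 311 that rose with radiation, the mean was greater with flaxseed at 167, and of the 182 that fell, at 95. Taken in the direction of the radiation change, the median difference was 0.004 (log2), against 0.0034 over all spots. The median radiation change averaged over diets was 0.54. Averaged over the 493 spots in that direction and set against the mean with radiation alone, the level was -0.44 ± 0.09 (log2, SD, n = 5) in untreated lung, -0.79 ± 0.04 with flaxseed alone and 0.0059 ± 0.09 with both. The irradiated groups thus lay together. The unirradiated flaxseed lungs ran from -0.85 to -0.73 and the untreated lungs from -0.52 to -0.33. Those unirradiated groups also chose the list, and a spot displaced with flaxseed alone can enter it through that group. The gap between them therefore describes the list and is not a separate result. The interaction of diet and radiation had an unadjusted p under 0.05 at 155 of the 493, beside 10.1% of all spots. It called none of the 493 in limma. Choosing the list by p favours a small estimate of the shared spread, which raises this count and the 41. A spot that entered through flaxseed alone can also carry an interaction. Neither count is therefore a test of the list. A 2-fold difference between the diets was excluded at 463 of the 493 (93.9%), beside 98.2% of all spots. Of the 493, 295 were among the brightest 1920 spots, where that share was 93.0%.

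Among the largest radiation changes, the intervals of the difference between the diets were wide. Spot gene6982 rose with radiation by 1.04 ± 0.2 (log2, SE; limma adjusted p = 0.00426) averaged over diets. Its mean was 13.51 ± 0.32 (SD, n = 5) untreated and 13.65 ± 0.41 with radiation alone, against 12.28 ± 0.72 with flaxseed alone and 14.22 ± 0.31 with both, so the averaged rise came mostly from the flaxseed diet. The interaction was 1.82 and did not pass (limma adjusted p = 0.107). It read 13.75, 13.34, 13.41, 13.41 and 14.33 with radiation alone and 14.33, 14.09, 13.94, 14.71 and 14.05 with both, a difference of 0.58 with an interval from -0.0029 to 1.16 (limma adjusted p = 0.923). Spot gene6958 rose by 1.07 ± 0.22 (SE; limma adjusted p = 0.00658) averaged over diets, from 12.69 to 13.47 without flaxseed and from 11.55 to 12.91 with it, and leaned the other way between the diets, at -0.56 with an interval from -1.2 to 0.09. Its readings were 13.34, 14.16, 13.17, 13.17 and 13.48 with radiation alone and 13.78, 12.6, 12.46, 13.25 and 12.46 with both, so the groups overlapped. Neither spot passed between the diets.

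Spots gene0066 and gene1091 fell with radiation, by -2.52 ± 0.4 and -2.46 ± 0.31 (log2, SE; limma adjusted p = 0.00122 and 0.000204). Spot gene1091 read 12.04, 13.16, 13.68, 11.63 and 12.75 with radiation alone and 12.71, 14.16, 11.98, 11.27 and 12.45 with both. Lungs within a group thus lay more than 4-fold apart, and the difference of -0.14 had an interval from -1.06 to 0.78. Spot gene0066 read 11.37, 11.79, 10.59, 10.09 and 11.85 with radiation alone and 10.96, 12.43, 11.21, 9.53 and 11.87 with both, with an interval from -1.12 to 1.24.

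These spots belong to 31 with means more than 2-fold lower in irradiated than unirradiated lung on each diet, a set picked on these arrays. Its mean level was 10.08, 10.61, 10.46, 9.5 and 10.2 (log2) in the 5 lungs with radiation alone and 10.46, 11.54, 9.84, 9.52 and 10.41 with both. The flaxseed lungs covered a wider range, with replicate 2 above every other irradiated lung and below the lowest untreated lung, at 11.69. The diets differed by 0.19 over all arrays and by -0.11 without that lung. Over all arrays the mean was higher with flaxseed at 23 of the 31 spots, beside 50.1% of all spots. The spots share the same lungs, replicate 2 among them, and are not independent. The interval held 0 at all 31. The interval of the diet difference reached 0.84 to either side at the median spot of the set, against 0.30 over all spots, and lay inside 2-fold at 10 of the 31.

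As whole arrays, irradiated lungs did not sort by diet. The median correlation of log2 intensity across spots was 0.967 over 10 pairs with radiation alone, 0.964 over 10 pairs with both, and 0.966 over 25 pairs of unlike diet. With spots centred over the 10 irradiated arrays, 5 of 10 arrays correlated better on average with their own diet group than with the other, and 4 had their nearest array in their own group. The same measure over the 10 arrays without radiation gave 10 and 10. Spread among mice was also alike, with a median SD per spot of 0.203 with radiation alone and 0.214 with both, and 51.7% of spots had the larger SD with flaxseed. Without flaxseed and radiation replicate 1 these became 0.191 and 46.1%.

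Position by spot number moved with the comparison. The row of the spot number, read as 24 rows in each of 16 blocks, held 7.9% of the variance of the diet difference in irradiated lung, and row means ran from -0.09 (row 4) to 0.1 (row 15) on the log2 scale. Flaxseed and radiation replicate 1 carried most of it, since the share was 2.14% without that array. The files do not state the printed layout, so this reading of the numbers is an assumption. With row, column and block means removed the count of called spots was again 0, a 2-fold change was excluded at 9472 spots, and 3 of 10 arrays correlated better with their own diet group.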

How the data were processed

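Lung RNA was labelled with 33P by reverse transcriptase and hybridised to MA10 arrays, 1 mouse each, per the labels' protocols. The deposited scanner files give a signal median and a local background median per spot as linear intensity, not normalized, per the file headers and values. The sources used here name no scanner or image software. The authors' deposited table holds intensity values that equal signal minus background over the array's median of that difference at 95.9% to 97.7% of spots (relative tolerance 0.001). It is not on a log scale or centred per spot. 18 of its 20 columns match their own array; the columns for radiation replicates 4 and 5 are exchanged. Which source numbers them rightly cannot be told. Scanner numbering is used throughout, and both arrays belong to 1 group.

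Background was corrected by normexp (offset 50), arrays were quantile normalized, and log2 values of all 4 groups were fitted with limma 3.58.1 in R 4.3.3 (16 residual and 2.75 prior degrees of freedom, two-sided p, Benjamini-Hochberg over 9600 spots). Control and duplicate spots are not marked, so all were tested. Intervals are 95% limma intervals. With subtraction and the table, low values were floored at percentile 1 before log2. To undo the offset, both group levels at an interval's limit were set around their mean, 50 was subtracted from each, and their ratio was taken. The fit and intervals were tested on simulated arrays with independent normal values and an equal spread in all groups at each spot. The simulation held no row effects, no single outlying lungs and no background correction, so it cannot test the intervals where these matter. Named spots are the 2 with the smallest p in each direction, and for other contrasts the 2 largest rises and falls among called spots; others are marked as singled out. No table pairs spots with genes, so planned genes and markers were not applied. The comparison, lists and alternatives were chosen with earlier results of these data known.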

Additional observations from a re-analysis of the deposited data

Results flagged for a closer look

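Single arrays standing apart were looked for in 40 sets of 5 irradiated lungs, where chance marks about 1 in 20, and 2 sets held one. In flaxseed and radiation replicate 1, row means by spot number held 19.7% of the variance, while its 4 companions had 2.03% to 5.26%. At gene6376, flaxseed and radiation replicate 2 read 11.75 (log2), while the remaining 4 lungs read 6.45 to 6.72. That spot was examined because of its large difference, which rests on that lung, so the count of 2 cannot be read against the chance rate.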

How the results depend on the processing

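No spot was called between the diets in irradiated lung in any of 20 fits with 1 array left out or in 12 of 13 other settings. Background subtraction called 2, both lower with flaxseed. They were gene1652 and gene6492, named after their values were seen, at -1.69 and -1.97 (log2; limma adjusted p = 0.0299 and 0.014). Both were dim, at 1.21 times background, and stood at -0.13 and -0.16 with the offset (limma adjusted p = 0.859 and 0.807). At a threshold of 0.1 the count was 0. A 2-fold change was excluded at 6270 spots without the dimmest 33.3% of spots, where only 6400 were tested. A 1.5-fold change was excluded at 4703 spots with no background correction, 1321 with subtraction, 2882 with an offset of 0, 1473 with the authors' table, 4506 without the dimmest 33.3%, and 2494 of 8097 with an offset of 0 on spots over 2 times background, a setting chosen after the data were seen. Leaving out single arrays gave 9348 to 9428 for 2-fold and 7093 to 7626 for 1.5-fold. The interaction called 1 spot with subtraction, 6 with median scaling, 9 without the dimmest 33.3%, 1 with position removed, 15 at a threshold of 0.1, and 0 to 13 with single arrays left out: 3 without untreated replicate 3, 1 and 2 without flaxseed replicates 1 and 3, and 13 without radiation replicate 5. The median difference of the flaxseed-alone spots was -0.056 to 0.024 with single arrays left out, the lowest without radiation replicate 1, and -0.03 to 0.04 otherwise. The cause was not tested for these shifts. Median scaling moved the median of all spots by -0.04 only. No paired analysis was possible because the labels number the mice 1 to 20 and share no number across groups.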
